A study of Mus musculus with 12 samples.

Results

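The immediate early response genes described here are 10 transcription factors and induced genes: Fos, Fosb, Jun, Junb, Jund, Egr1, Egr2, Egr3, Ier2 and Nr4a1. They were chosen by name: every Affymetrix probe set whose platform symbol is 1 of these 10 was taken, which gave 14 of 45099 probe sets and 10 of 18194 named genes. All 10 genes passed the brightness filter and are among the 11649 genes tested. RNA was measured in mouse thymocytes on 12 arrays in 6 groups of 2, which are IkL/L DN3, DN4 and DP cells and WT DN3, DN4 and DP cells. IkL/L cells carry Ikaros-deficient alleles of Ikzf1, the gene of the lymphoid zinc-finger factor Ikaros, and WT cells are their wild-type counterparts. DN3 and DN4 are successive precursor stages that carry neither CD4 nor CD8, and DP cells carry both. Cells of 3 mice were pooled for sorting. The sources do not say whether both arrays of a group had their own pool, so the p-values measure the spread between these arrays, which may be partly technical. Age, sex and the make-up of the IkL/L allele are not given in the sources used here, and no group had a treatment.

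Immediate early genes are switched on within minutes of a signal at the cell surface, without new protein synthesis. In thymocytes, signals of the pre-T cell receptor and the T cell receptor run through Ras and ERK to the factors SRF, ELK and CREB, which sit at early gene promoters. FOS and JUN proteins pair to form the factor AP-1, while EGR proteins bind GC-rich sites and serve the passage through the receptor checkpoints. The same genes also answer heat, shear and enzyme digestion, so their RNA can change while cells are handled.

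The promoters of Fos, which fell between stages, Junb, which differed between genotypes in DN3 cells, Egr2, which rose between stages, and Nr4a1, which was not called in any comparison over all arrays, are shown because the DNA-binding factors named above meet the gene there. RefSeq windows of 300 bases, 250 before to 50 after a gene start on GRCm38.p6, were searched for 7 of the 10 members. These were 11 windows. No window of Egr1, Egr3 or Ier2 was searched, so their promoters are not described, and whether RefSeq holds a window for them is left open. The motifs searched on both strands were the CArG box bound by SRF, the CRE TGACGTCA, its shorter form TGACG that overlaps every CRE, the AP-1 site TGACTCA, and the Egr sites GCGTGGGCG and GCGGGGGCG. Capitals mark matches in the 4 windows below, each written 5′ to 3′ on the strand of its gene. Fos lies on the plus strand at chr12:85473640-85473939, Junb on the minus strand at chr8:84978699-84978998, Egr2 (the third of its 5 windows) on the plus strand at chr10:67537619-67537918, and Nr4a1 on the plus strand at chr15:101266596-101266895.
Fos: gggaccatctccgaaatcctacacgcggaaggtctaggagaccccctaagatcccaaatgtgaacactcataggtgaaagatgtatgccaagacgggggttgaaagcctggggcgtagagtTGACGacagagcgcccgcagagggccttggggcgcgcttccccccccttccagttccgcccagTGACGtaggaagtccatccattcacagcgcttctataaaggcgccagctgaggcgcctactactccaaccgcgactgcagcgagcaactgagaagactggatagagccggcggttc
Junb: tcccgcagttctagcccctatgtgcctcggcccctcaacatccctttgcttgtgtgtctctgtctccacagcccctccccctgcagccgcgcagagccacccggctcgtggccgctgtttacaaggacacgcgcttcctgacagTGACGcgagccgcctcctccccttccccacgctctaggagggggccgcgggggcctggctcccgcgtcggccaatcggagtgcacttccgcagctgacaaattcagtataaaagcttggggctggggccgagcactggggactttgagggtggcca
Egr2: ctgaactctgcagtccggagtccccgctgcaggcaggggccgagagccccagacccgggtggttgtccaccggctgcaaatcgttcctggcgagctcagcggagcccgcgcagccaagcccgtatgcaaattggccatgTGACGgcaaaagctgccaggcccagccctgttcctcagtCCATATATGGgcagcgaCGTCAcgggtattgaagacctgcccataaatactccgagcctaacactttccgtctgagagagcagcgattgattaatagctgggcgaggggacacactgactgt
Nr4a1: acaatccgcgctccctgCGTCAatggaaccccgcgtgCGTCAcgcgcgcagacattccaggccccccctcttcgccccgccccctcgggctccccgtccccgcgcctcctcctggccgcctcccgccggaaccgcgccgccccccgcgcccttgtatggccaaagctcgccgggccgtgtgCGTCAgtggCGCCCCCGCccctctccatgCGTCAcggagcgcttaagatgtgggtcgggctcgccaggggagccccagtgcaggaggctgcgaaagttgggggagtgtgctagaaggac

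The Egr2 window held 1 CArG box, which starts at base -72 from the gene start, and 2 TGACG matches. The other Egr2 windows with a CArG box were 2, 4 and 5, of which 4 and 5 overlap the printed one and hold the same site. On either strand, TGACG occurred 2 times in the Fos window, 1 time in that of Junb and 4 times in that of Nr4a1, which also held 1 Egr site of the form GCGGGGGCG. The Fosb window had 1 of each of these, and the Jun and Jund windows held none of the motifs. Of all 32851 RefSeq windows, 1.63% held a CArG box, 1.79% the CRE, 20.8% TGACG, 5.2% the AP-1 site, 0.612% the T form and 2.91% the G form of the Egr site. These matches describe letters in a window and say nothing of whether a factor was bound.

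Array values are log2 signals from RMA, so a difference of 1 is a 2-fold change of signal. A signal is read within a probe set only, since probe sets differ in how brightly they bind. Array medians lay between 5.14 and 5.22, values at or below this level may be mostly background, and arrays of a group correlated at 0.986 to 0.995. The number of arrays limits the precision. The brighter Ikzf1 probe set was lower in IkL/L cells at all 3 stages, at −0.65, −0.63 and −0.70 in DN3, DN4 and DP cells (limma adjusted p = 0.0192, 0.02 and 0.00998 over probe sets). Its dimmer probe set was lower in DN4 cells, at −1.03 (0.00514), and was not called in DN3 (−0.29, 0.453) or DP cells (−0.23, 0.551). The stage markers matched the sorted stages in part. The DN3 marker Il2ra averaged 10.40 in IkL/L and 10.72 in WT DN3 cells. In DP cells Cd4 averaged 10.85 in IkL/L and 11.03 in WT, Cd8a 12.68 and 12.85, and Cd8b1 12.55 and 12.63. The DN3 marker Ptcra averaged 10.15 in DN3 and 10.04 in DP cells of IkL/L mice, and 10.76 and 8.41 in WT mice. Ptcra was higher by 1.63 in IkL/L DP cells (limma adjusted p = 0.00027). Cd8b1 differed by −1.65 in IkL/L DN4 cells (0.00109), averaging 7.82 against 9.47 in WT DN4 cells. The 3 IkL/L replicate 2 arrays stood apart in the Y-linked gene Eif2s3y, which read 2.82 to 3.12 there and 7.78 to 9.58 on the other arrays. The genotype comparisons therefore set IkL/L arrays with and without this Y-linked signal against WT arrays that all have it. These 3 arrays may come from other animals than the rest, which the sources do not say. Member calls that change without these arrays are given with both outcomes.

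The immediate early genes differed most between stages. Between DN4 and DP cells, Fos fell to 6.02% of its DN4 signal in IkL/L cells and to 6.24% in WT cells, Jun fell by both of its probe sets, and Egr1 and Egr2 rose. Genotype differences were smaller: Junb was lower in IkL/L DN3 cells, and Fos was lower in IkL/L cells in the average over stages.

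**Figure D1:**
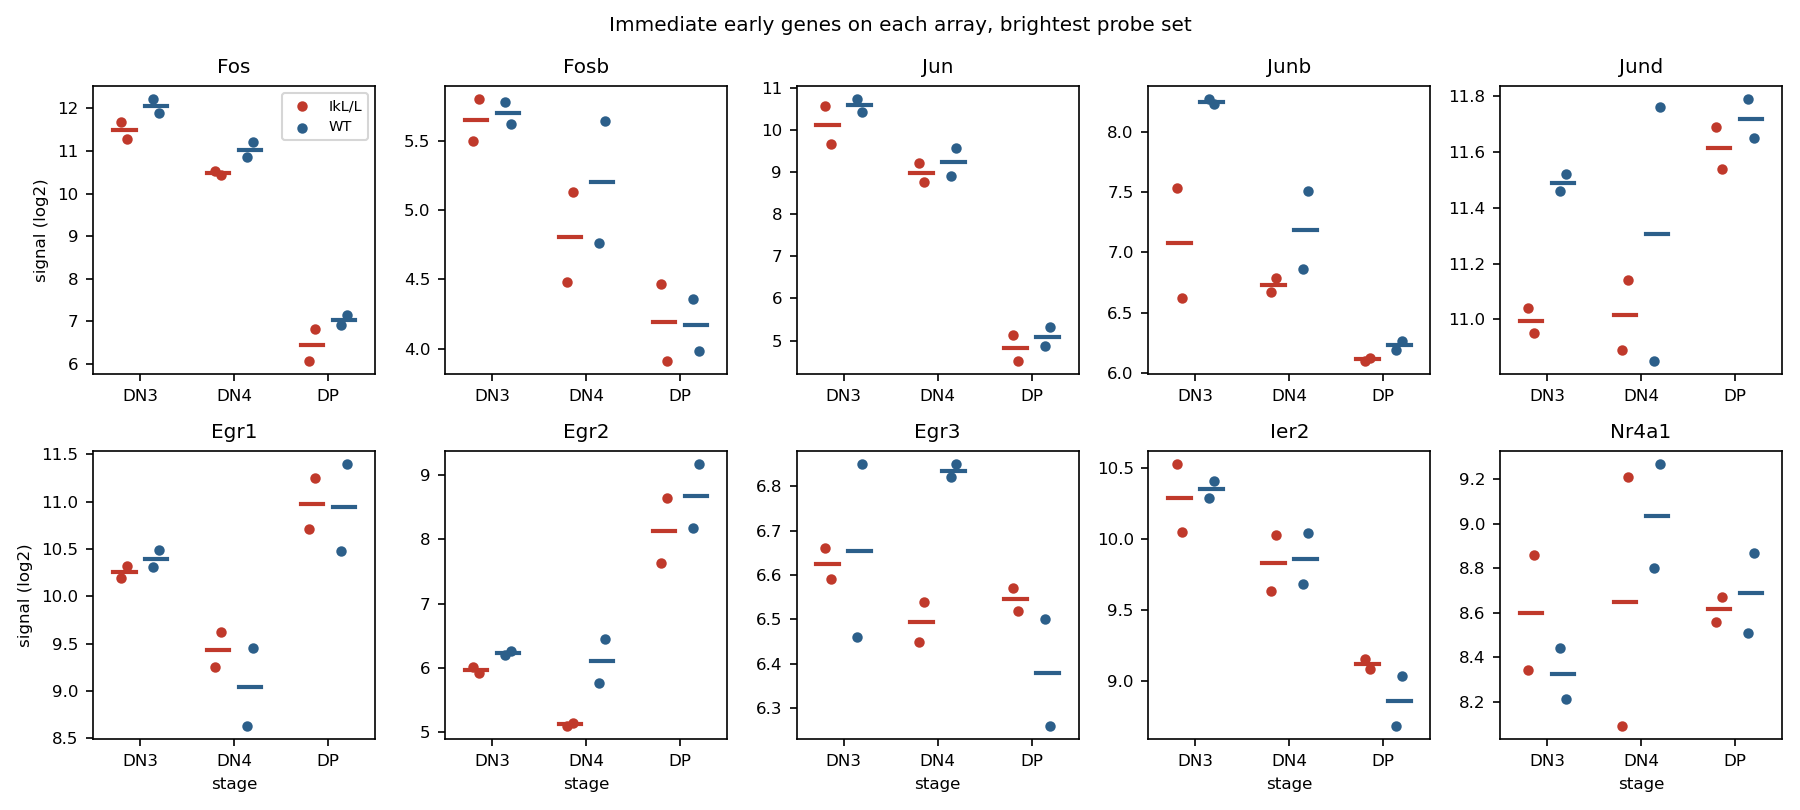
Signal (log2, vertical axes, scaled separately for each gene) of the 10 genes by stage, with a point for each array, a bar for the mean of a group, IkL/L in red and WT in blue. Fos and Jun sit far lower in DP cells, Egr1 and Egr2 sit highest there, and the Nr4a1 arrays all lie between 8.09 and 9.27.

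Fos encodes the FOS subunit of AP-1. In IkL/L cells, Fos read 11.69 and 11.29 in DN3, 10.54 and 10.44 in DN4, and 6.06 and 6.81 in DP cells. In WT cells, Fos read 12.22 and 11.89 in DN3, 10.85 and 11.21 in DN4, and 6.91 and 7.14 in DP cells. The signal dropped at each step, and within each stage both IkL/L arrays lay below both WT arrays. The DN4 to DP difference was −4.06 ± 0.24 in IkL/L cells and −4.00 ± 0.24 in WT cells (SE, n = 2 arrays a group; limma adjusted p = 2.17e-07 and 1.17e-07), which left 6.02% and 6.24% of the DN4 signal. The DN3 to DN4 difference was −1.0 ± 0.24 in IkL/L cells (limma adjusted p = 0.034) and −1.03 ± 0.24 in WT cells (0.0182).

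Jun encodes the founding JUN subunit of AP-1, and its 6 group means followed those of Fos more closely than any other member did, with a root mean square distance of 0.199 after centring. Its brighter probe set, 1417409_at, read 10.58 and 9.67 in DN3, 9.21 and 8.78 in DN4, and 5.13 and 4.51 in DP cells of IkL/L mice. WT readings of this probe set were 10.74 and 10.44 in DN3, 8.90 and 9.58 in DN4, and 4.86 and 5.31 in DP cells. IkL/L and WT arrays overlapped at each stage, while the stages stood apart. From DN4 to DP cells, Jun fell by 4.17 in IkL/L cells and fell by 4.16 in WT cells (SE 0.32; limma adjusted p = 1.4e-06 and 7.98e-07). DP signals at or near the array median bound these falls, which are therefore lower limits of the change in RNA.

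The second Jun probe set, 1448694_at, gave the same directions with smaller steps at the end. It read 9.74 and 9.69 in DN3, 8.35 and 8.27 in DN4, and 5.92 and 5.74 in DP cells of IkL/L mice, against 10.14 and 9.99, 8.15 and 8.85, and 5.70 and 5.62 at these stages in WT mice. Between DN4 and DP the differences were −2.48 in IkL/L cells and −2.84 in WT cells (limma adjusted p = 9.3e-06 and 2.2e-06 over the 20865 probe sets tested), which left 17.9% of the DN4 signal in IkL/L cells and 14.0% in WT cells. Of those probe sets, 41.8% were called over this step in IkL/L cells and 55.6% in WT cells.

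Fosb, Junb and Jund encode further AP-1 subunits, and their steps were smaller. Fosb was dim, above the array median on 5 of 12 arrays. It read 5.50 and 5.80 in DN3, 4.48 and 5.13 in DN4, and 4.47 and 3.91 in DP cells of IkL/L mice. The WT values of Fosb were 5.78 and 5.62 in DN3, 4.76 and 5.64 in DN4, and 4.36 and 3.98 in DP cells. Only DN3 cells stayed above the median on every array in both genotypes. Over the DN4 to DP step Fosb differed by −0.62 in IkL/L cells (limma adjusted p = 0.112) and fell by 1.03 in WT cells (0.0105). The WT call was lost without WT DN4 replicate 2, at −0.60 (0.136), or WT DP replicate 2 (0.0754), and DP signals below the array median make the WT fall a lower limit.

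Junb, whose product often opposes the growth-promoting action of JUN, read 7.53 and 6.62 in DN3, 6.67 and 6.79 in DN4, and 6.10 and 6.13 in DP cells of IkL/L mice. Its WT values were 8.27 and 8.23 in DN3, 6.86 and 7.51 in DN4, and 6.19 and 6.27 in DP cells. The WT DN3 arrays were the highest of the 12. Between DN4 and DP, Junb differed by −0.61 in IkL/L cells (limma adjusted p = 0.0724) and fell by 0.96 in WT cells (0.00739), and this WT call was lost without WT DN4 replicate 2 (adjusted p = 0.0953) and, at −0.63, with the 3′ minus 5′ difference of the actin control, a measure of RNA quality, as a covariate (0.094).

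Jund, the JUN family member least tied to stimulation, was bright throughout. Probe set 1449117_at read 11.04 and 10.95 in DN3, 10.89 and 11.14 in DN4, and 11.69 and 11.54 in DP cells of IkL/L mice. Its WT values were 11.46 and 11.52 in DN3, 10.85 and 11.76 in DN4, and 11.79 and 11.65 in DP cells. The whole range over 12 arrays was under 1 log2 unit. Jund rose by 0.60 between IkL/L DN4 and DP cells (limma adjusted p = 0.049), a call lost in 15 of 25 alternative settings, among them leaving out the 3 IkL/L replicate 2 arrays (0.102). In WT cells Jund differed by 0.42 (0.141), and by 0.87 without WT DN4 replicate 2 (0.00172). Its second probe set, 1440265_at, lay below the array median on all 12 arrays, at 4.17 to 5.01, and was not tested.

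Egr1 encodes a zinc-finger factor induced by receptor signals through ERK. It read 10.19 and 10.32 in DN3, 9.25 and 9.62 in DN4, and 10.71 and 11.25 in DP cells of IkL/L mice. The WT values of Egr1 were 10.31 and 10.49 in DN3, 8.63 and 9.45 in DN4, and 10.48 and 11.40 in DP cells. DN4 was the low point in both genotypes, and no array of that stage reached the DN3 or DP arrays. The rise from DN4 to DP was 1.54 ± 0.31 in IkL/L cells and 1.90 ± 0.31 in WT cells (limma adjusted p = 0.00157 and 0.000269).

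Egr2 encodes a related factor of the T cell receptor checkpoints. Its brighter probe set, 1427683_at, read 6.02 and 5.92 in DN3, 5.10 and 5.15 in DN4, and 7.63 and 8.64 in DP cells of IkL/L mice. In WT cells, Egr2 read 6.20 and 6.27 in DN3, 5.77 and 6.45 in DN4, and 8.18 and 9.17 in DP cells. All 4 DP arrays exceeded every DN3 and DN4 array, and the IkL/L DN4 arrays sat at the level of the array median. The DN4 to DP rise was 3.01 ± 0.35 in IkL/L cells and 2.57 ± 0.35 in WT cells (limma adjusted p = 2.57e-05 and 5.56e-05), which is a 5.92-fold gain of signal in WT cells. The IkL/L rise starts from a signal not above the array median and is a lower limit. The second probe set, 1427682_a_at, rose by 3.11 in IkL/L cells and by 2.67 in WT cells (adjusted p = 0.000106 and 0.000179 over probe sets).

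Egr3 encodes a further EGR factor, and its probe sets disagreed. The brighter, 1421486_at, read 6.66 and 6.59 in DN3, 6.45 and 6.54 in DN4, and 6.57 and 6.52 in DP cells of IkL/L mice, against 6.46 and 6.85, 6.82 and 6.85, and 6.50 and 6.26 at these stages in WT mice. The dimmer, 1436329_at, read 3.69 and 4.01, 3.45 and 3.79, and 5.37 and 6.68 at these stages in IkL/L mice, against 4.09 and 3.95, 4.33 and 4.46, and 5.55 and 6.84 in WT mice. The brighter set was nearly level, whereas the dimmer passed the array median on the 4 DP arrays only. Over the DN4 to DP step the brighter set differed by 0.05 in IkL/L cells (limma adjusted p = 0.809) and by −0.45 in WT cells (0.02), a call lost without WT DN4 replicate 1, WT DN4 replicate 2 or WT DP replicate 2 (adjusted p up to 0.128). The dimmer differed by 2.40 in IkL/L cells and by 1.79 in WT cells. These values are given without a test, since this probe set passed the brightness filter through its DP arrays alone. With the mean of the probe sets, the WT difference turned to 0.67 (adjusted p = 0.0161), so no direction is given for Egr3.

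**Figure D2:**
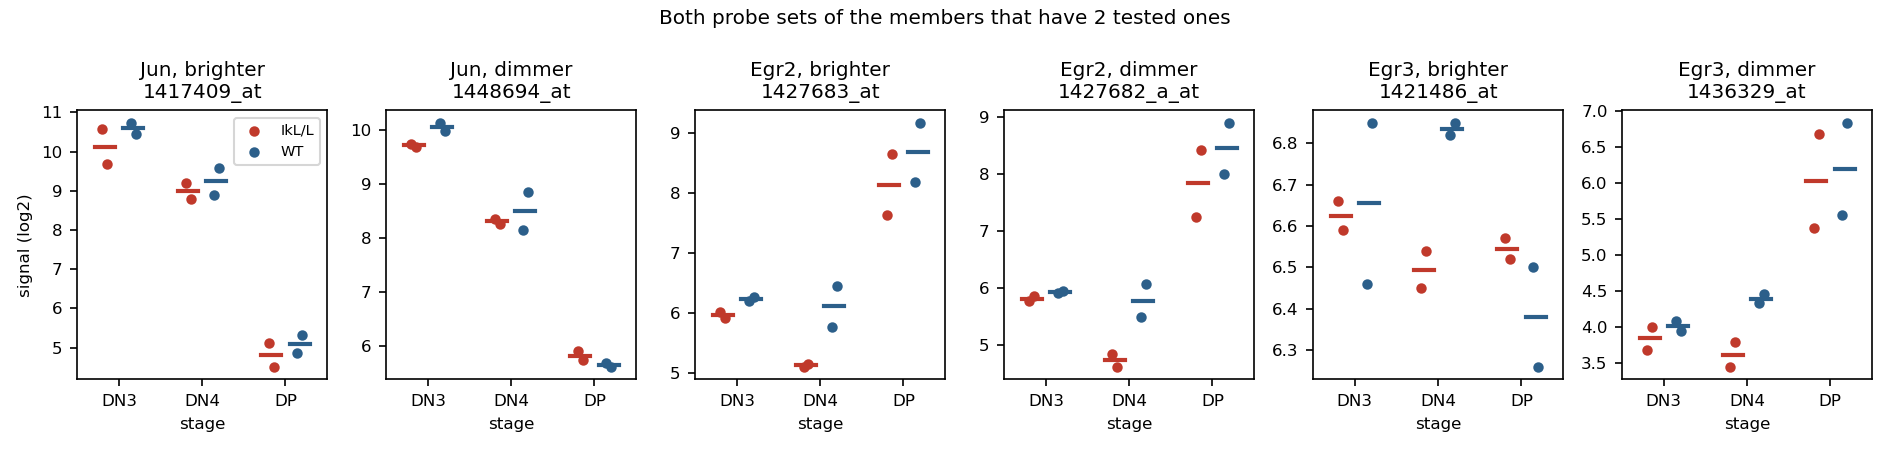
Signal (log2, vertical axes, scaled separately) by stage for both probe sets of Jun, Egr2 and Egr3, with a point for each array, a bar for the group mean, IkL/L in red and WT in blue. The sets of Jun and of Egr2 share a shape, while those of Egr3 do not: 1421486_at stays within 6.26 to 6.85, and 1436329_at reads highest in DP cells.

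Ier2, a short-lived nuclear protein of the early response, read 10.53 and 10.05 in DN3, 9.63 and 10.03 in DN4, and 9.15 and 9.08 in DP cells of IkL/L mice. The WT values of Ier2 were 10.29 and 10.41 in DN3, 9.68 and 10.04 in DN4, and 8.68 and 9.03 in DP cells. DP arrays lay below all others in both genotypes. Ier2 fell by 0.71 between DN4 and DP in IkL/L cells and by 1.01 in WT cells (limma adjusted p = 0.0121 and 0.00109). The IkL/L call was lost without IkL/L DN4 replicate 2 (adjusted p = 0.118), IkL/L DP replicate 2 (0.0645) or the 3 IkL/L replicate 2 arrays, at −0.47 (0.175).

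Nr4a1 encodes NUR77, an orphan nuclear receptor used as a reporter of T cell receptor signal. It read 8.34 and 8.86 in DN3, 8.09 and 9.21 in DN4, and 8.56 and 8.67 in DP cells of IkL/L mice. The WT values of Nr4a1 were 8.44 and 8.21 in DN3, 8.80 and 9.27 in DN4, and 8.51 and 8.87 in DP cells. The IkL/L DN4 arrays alone span nearly the whole range, from the lowest of the 12 to the second highest. No Nr4a1 step was called in the fit over all arrays. In WT cells both DN4 arrays lay above both DN3 arrays, and the difference of 0.71 (limma adjusted p = 0.186) passed without the 3 IkL/L replicate 2 arrays (0.0444) and with the arrays of the contrast alone (0.0207). The DN4 to DP difference was −0.04 (95% interval −0.71 to 0.63) in IkL/L cells and −0.35 (−1.02 to 0.33) in WT cells.

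Counted over the members, the DN4 to DP step was called for 6 of 10 in IkL/L cells, where 45.5% of all tested genes were called, and for 8 of 10 in WT cells, where 57.0% were. In IkL/L cells 3 members rose (Egr1, Egr2 and Jund) and 3 fell (Fos, Jun and Ier2), beside 19.5% and 26.0% of all genes in these directions. In WT cells 2 rose (Egr1 and Egr2) and 5 fell (Fos, Fosb, Jun, Junb and Ier2), while Egr3 was called lower by its brighter probe set only and is given no direction, beside 23.8% and 33.2% of all genes. The median over the 10 members was −0.33 in IkL/L cells and −0.70 in WT cells, and over all genes −0.038 and −0.147.

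At the DN3 to DN4 step the median over the 10 members was −0.64 in IkL/L cells and −0.49 in WT cells, and over all genes −0.002 and −0.032. In IkL/L cells 1 of 10 members was called, Fos, beside 4.40% of all genes, and 3.19% of all genes were called lower. In WT cells 4 of 10 were called, Fos, Jun, Junb and Egr1, all lower, beside 9.25% of all genes called and 7.70% called lower. The WT differences were −1.03 for Fos, −1.35 for Jun, −1.07 for Junb and −1.36 for Egr1 (limma adjusted p = 0.0182, 0.0219, 0.023 and 0.0185). Junb differed by −0.34 (adjusted p = 0.574), Jun by −1.13 (0.0777) and Egr1 by −0.82 (0.201) in IkL/L cells. Jun passed there at −1.59 without IkL/L DN3 replicate 2 (0.0171).

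None of these WT calls held without WT DN3 replicate 1 or without WT DN4 replicate 1, where 0 members were called. Without WT DN3 replicate 2, 1 was called. In IkL/L cells the Fos call was lost in 9 of 25 settings, among them leaving out IkL/L DN3 replicate 1 (adjusted p = 0.126), IkL/L DN4 replicate 1 (0.143), IkL/L DN4 replicate 2 (0.195) or the 3 replicate 2 arrays (0.0503). The second Jun probe set fell by 1.40 in IkL/L cells and by 1.57 in WT cells (limma adjusted p = 0.00414 and 0.00128), beside 2.80% and 6.35% of tested probe sets called. Over the 21 settings tried for it, this difference lay between −1.44 and −1.36 in IkL/L cells and between −1.92 and −1.21 in WT cells. The WT call held in all 21 settings, and the IkL/L call in 19. It was lost in IkL/L cells with the arrays of the contrast alone and without the 3 IkL/L replicate 2 arrays. The Nr4a1 difference was 0.05 in IkL/L cells (adjusted p = 0.964).

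Single markers of other cell types and of handling fell over the same DN3 to DN4 step, while their lists did not all move that way. Nkg7 of the NK and mature T cell list differed by −3.05 in IkL/L cells and −2.49 in WT cells, the myeloid gene Lyz2 by −2.38 in IkL/L cells and −1.48 in WT cells, and Socs3 of the handling list by −2.59 in IkL/L cells and −3.0 in WT cells (limma adjusted p = 0.00611 at most). The B cell gene Cd79b fell in WT cells, at −1.40 (0.00347). These were 1 of 3 NK and mature T cell, 1 of 4 myeloid and 1 of 11 handling genes tested in each genotype, and 1 of 2 B cell genes in WT cells, and limma called 0 of 5 dendritic, 0 of 4 stromal and 0 of 2 erythroid markers, with 0, 0 and 0 at an unadjusted p under 0.05 in IkL/L cells and 2, 1 and 0 in WT cells. Medians over the tested NK and mature T cell genes were −0.02 in IkL/L and 0.68 in WT cells. They were −1.18 and −0.02 for myeloid, −0.03 and −0.19 for handling, −0.51 and −0.73 for B cell, and −0.16 and 0.17 for dendritic genes. The part of all these markers in the falls of Fos, Jun, Junb and Egr1 was not tested.

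**Figure D3:**
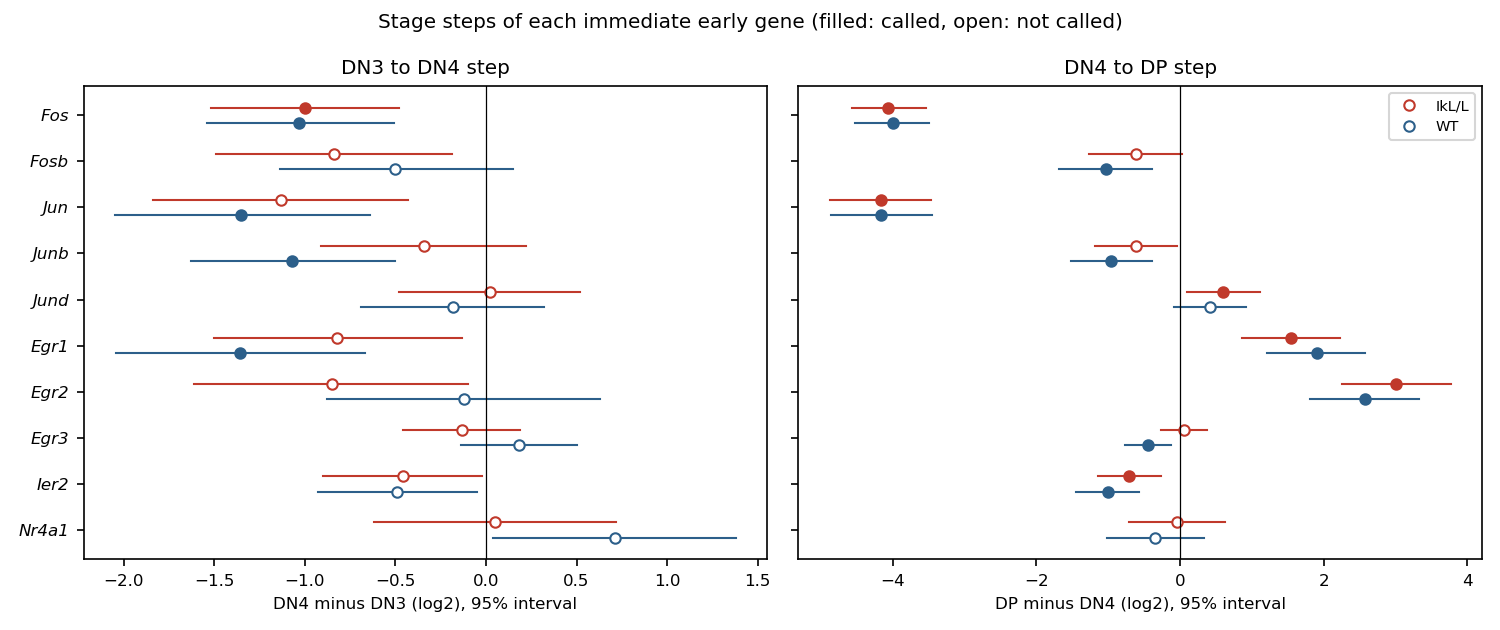
Stage differences (log2, horizontal axes) of the 10 genes at the DN3 to DN4 step (left) and the DN4 to DP step (right), with IkL/L in red above WT in blue, bars for 95% intervals, and filled points for adjusted p under 0.05. Fos and Jun lie near −4 in both genotypes at the second step, with Egr1 and Egr2 on the other side of 0.

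No member's step was called as different between the genotypes. For the DN3 to DN4 step 0 of 10 members were called in limma, with 0 at an unadjusted p under 0.05, beside 0.0515% of all genes. For the DN4 to DP step 0 of 10 were called, with 1 at an unadjusted p under 0.05, beside 0.987% of all genes. The step of Fos differed by −0.05 (95% interval −0.78 to 0.68) between IkL/L and WT cells, and that of Jun by −0.02 (−1.02 to 0.98). For Junb, the DN3 to DN4 step was −0.34 in IkL/L cells and −1.07 in WT cells, a difference of 0.72 (−0.07 to 1.52, limma adjusted p = 0.556).

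Within stages, few members were called between genotypes, which is near the share of all genes called. With 2 arrays a group, a difference that was not called may still be present. In DN3 cells, 1 of 10 was called, Junb, beside 4.28% of all genes called and 2.21% called lower. Junb averaged 7.07 ± 0.64 in IkL/L DN3 cells and 8.25 ± 0.03 in WT DN3 cells (SD, n = 2 each), a difference of −1.18 ± 0.26 (SE; 95% interval −1.74 to −0.62; limma adjusted p = 0.0224) that left 44.1% of the WT signal. The IkL/L arrays are 0.91 apart, but both lie below both WT arrays. The Junb difference kept its sign in all settings tried, from −1.64 to −0.73, and its call was lost in 6 of 25. Among these were leaving out IkL/L DN3 replicate 2, WT DN3 replicate 1 or WT DN3 replicate 2, for which the adjusted p reached 0.159, and leaving out the 3 IkL/L replicate 2 arrays.

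Other DN3 differences were not called. Fos differed by −0.57 (95% interval −1.08 to −0.05; limma adjusted p = 0.267) and Jund by −0.50 (−1.0 to 0.01; 0.331), with the IkL/L arrays below the WT arrays for both. Nr4a1, at 0.28, was the 1 member with a DN3 difference above 0. The median over the members was −0.20, and over all genes −0.041.

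Markers of other cell types differed between the same DN3 arrays. Of 7 dendritic cell markers 5 were tested, and the class II genes H2-Aa and H2-Ab1 were higher in IkL/L DN3 cells, by 1.94 and 1.44 (limma adjusted p = 0.0325 and 0.000886), while the dendritic cell genes Itgax and Xcr1 stayed below the array median in both groups. The other tested genes averaged lower in IkL/L than in WT DN3 cells, Bst2 at 8.97 against 9.26, Siglech at 5.15 against 5.28 and Flt3 at 6.08 against 6.12. The median difference over the 5 tested genes was −0.04. The mean level of the 7 dendritic cell markers was 6.47 to 6.53 on the IkL/L and 5.99 to 6.10 on the WT DN3 arrays. Of 8 NK and mature T cell markers 6 were measured and 3 tested. The cytotoxic granule gene Nkg7 was lower in IkL/L DN3 cells, at −1.74 (0.000591), and Ncr1 lay below the array median in both groups. Means of this list were 5.20 to 5.48 on the IkL/L and 5.62 to 5.75 on the WT DN3 arrays. H2-Ab1 was also higher by 1.11 in DN4 and 1.38 in DP cells (0.00547 and 0.00109), and Nkg7 lower at −2.29 in DN4 cells (8.5e-05).

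The mean level of 8 myeloid markers was 5.01 to 6.0 on the IkL/L DN3 arrays and 4.79 to 4.87 on the WT DN3 arrays. Among them, S100a8 averaged 7.15 in IkL/L and 5.07 in WT DN3 cells. Of these markers 4 were bright enough to test and limma called 0 in DN3 cells, with 1 at an unadjusted p under 0.05, but 3 without the 3 IkL/L replicate 2 arrays, while Cd14 and Mpo were below the array median in both groups. The part of these dendritic, NK and myeloid markers in the genotype differences of Junb, Fos and Egr2 was not tested. In bulk samples fewer cells of a type and less RNA per cell cannot be told apart.

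In DN4 cells, 0 of 10 members were called in limma, with 3 at an unadjusted p under 0.05, beside 6.88% of all genes. Egr2 had the largest difference, averaging 5.12 ± 0.04 in IkL/L and 6.11 ± 0.48 in WT DN4 cells (SD, n = 2 each), which is −0.99 ± 0.35 (SE; 95% interval −1.74 to −0.23; adjusted p = 0.107). Its second probe set gave −1.05 (0.132 over probe sets). Both IkL/L arrays lay below both WT arrays in each probe set. The call depended on the fit: Egr2 passed with array weights (adjusted p = 0.0426) and with the DN4 arrays alone (0.00838). Fos differed by −0.54 (adjusted p = 0.183), and passed with the DN4 arrays alone (0.042), while Jund differed by −0.29 (0.454), and passed at −0.75 without WT DN4 replicate 1 (0.0425). Junb differed by −0.46 (0.292) and Egr3 by −0.34 (0.174), and Egr1 had the 1 value above 0, at 0.40 (0.458). The median over the members was −0.36, and over all genes −0.002.

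In DP cells, 0 of 10 members were called in limma, with 1 at an unadjusted p under 0.05, beside 5.98% of all genes. Fos differed by −0.59 (95% interval −1.11 to −0.08; adjusted p = 0.199), and passed at −0.97 without the 3 IkL/L replicate 2 arrays (0.0363) or without IkL/L DP replicate 2 alone (0.044). Egr2 differed by −0.54 (0.467), Ier2 by 0.26 (0.57) and Junb by −0.12 (0.881). The median over the members was −0.09, and over all genes 0.025.

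Averaged over stages, 2 of 10 members were called, Fos and Junb, both lower in IkL/L cells, beside 15.5% of all genes called and 6.49% called lower. Fos differed by −0.57 ± 0.14 (SE; 95% interval −0.86 to −0.27; limma adjusted p = 0.016), which is 67.5% of the WT signal, with similar differences of −0.57, −0.54 and −0.59 in DN3, DN4 and DP cells. Junb differed by −0.59 ± 0.15 (adjusted p = 0.0208), with values of −1.18, −0.46 and −0.12 at these stages. Egr2 differed by −0.60 (0.0651), and passed at −0.76 without the 3 IkL/L replicate 2 arrays (0.0484), without WT DP replicate 1 (0.0157) and, at −0.77, without IkL/L DP replicate 2 (0.018). Jund differed by −0.30 (0.152), and passed at −0.45 without WT DN4 replicate 1 (0.0069), while Egr1, Ier2 and Nr4a1 stayed between −0.06 and 0.10. The Fos call was lost without WT DN3 replicate 1 or WT DN4 replicate 2 (adjusted p up to 0.0589). The Junb call was lost in 7 of 25 settings, which were each WT DN3 array, WT DN4 replicate 2, IkL/L DN4 replicate 1, IkL/L DP replicate 1 or the 3 IkL/L replicate 2 arrays left out, and genotype by replicate number as a random block (adjusted p = 0.0522). The median over the members was −0.22, and over all genes −0.011.

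**Figure D4:**
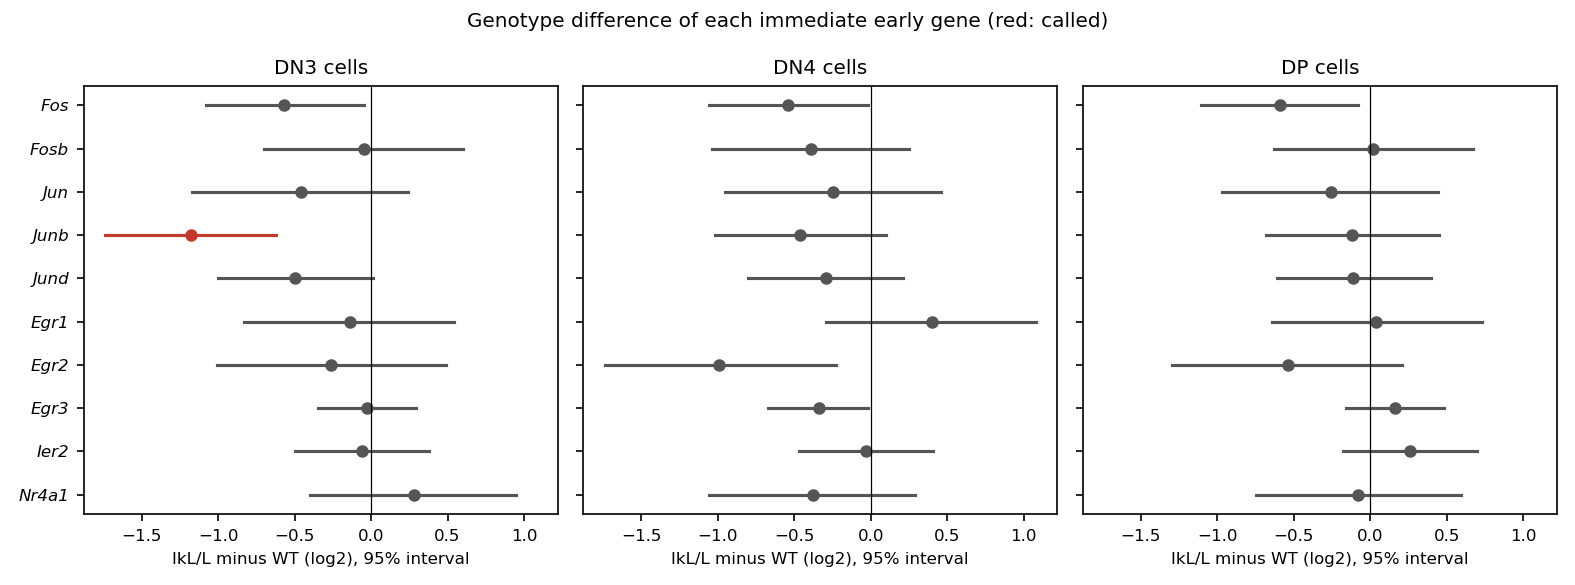
IkL/L minus WT difference (log2, horizontal axes) of the 10 genes in DN3, DN4 and DP cells, with bars for 95% intervals and red for adjusted p under 0.05. Junb in DN3 cells is the 1 called point, and the Fos points sit between −0.59 and −0.54 at all 3 stages.

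Of 22 further immediate early genes, 18 were tested. From DN4 to DP, 6 rose and 5 fell in IkL/L cells, where 19.5% of all genes were called higher and 26.0% lower. In WT cells 3 rose and 8 fell, beside 23.8% and 33.2% of all genes, and the share of the list called in either direction is near the 57.0% of all genes. The growth regulator Myc fell by 3.2 in IkL/L cells and by 4.06 in WT cells (limma adjusted p = 7.99e-07 and 9.2e-08), and the zinc-finger gene Klf4 by 2.27 in IkL/L cells and fell by 2.96 in WT cells (0.000301 and 2.72e-05). Btg2, an inhibitor of proliferation, rose by 2.09 in IkL/L cells and by 2.66 in WT cells (0.000142 and 1.47e-05), while Dusp1, a phosphatase of MAP kinases, fell by 1.26 in IkL/L cells and fell by 1.96 in WT cells (0.000541 and 1.3e-05). The list median was 0.11 in IkL/L and −0.18 in WT cells, beside all-gene medians of −0.038 and −0.147.

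**Figure D5:**
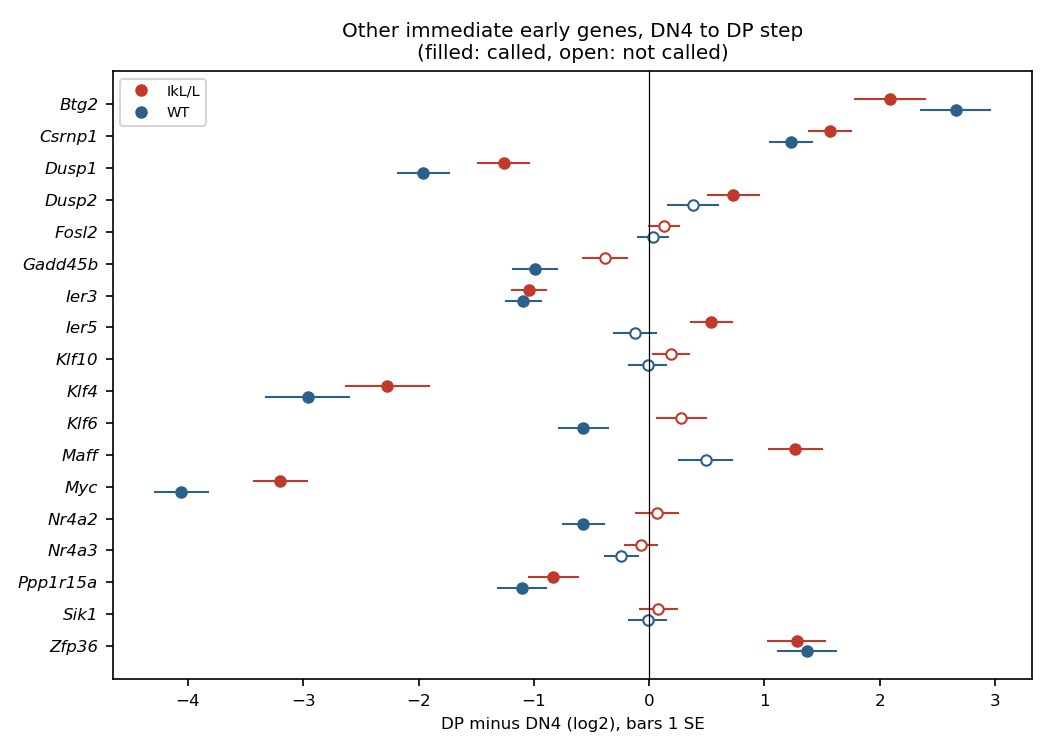
DN4 to DP difference (log2, horizontal axis) of the 18 tested genes among the other immediate early genes, with IkL/L in red above WT in blue, bars of 1 SE, and filled points for adjusted p under 0.05. Myc, Klf4 and Dusp1 lie far to the left and Btg2 far to the right in both genotypes.

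From DN3 to DN4, 2 of these 18 rose and 3 fell in IkL/L cells, beside 1.20% and 3.19% of all genes, and 0 rose and 3 fell in WT cells, beside 1.55% and 7.70%. Klf4 fell by 1.46 in IkL/L cells and by 1.41 in WT cells (limma adjusted p = 0.0431 and 0.0309), and Ier3, an inhibitor of cell death, by 1.14 in IkL/L cells and by 0.66 in WT cells (0.00111 and 0.0183). Between genotypes, 0 were called by limma in DN3 cells, with 7 at an unadjusted p under 0.05, and Gadd45b, a stress-induced gene, was lower in IkL/L DN4 cells, at −0.73 (0.0384). In DP cells Myc was higher by 1.18 (0.00871) and Ier5 by 0.87 (0.0121) in IkL/L cells. Over the stages Klf4 (−0.81), Ppp1r15a (−0.48) and Gadd45b (−0.43) were lower. Without the 3 IkL/L replicate 2 arrays, 0 were called in DN4, 1 in DP and 1 in the average.

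Of 20 genes of the ERK, SRF and CREB inputs, which carry the signal to the early promoters, 14 were measured and tested. At the DN4 to DP step, 6 rose and 0 fell in IkL/L cells, and 8 rose and 0 fell in WT cells, beside 19.5% and 23.8% of all genes called higher, with list medians of 0.30 in IkL/L and 0.63 in WT cells. Rasgrp1, which loads Ras with GTP after receptor signals, rose by 1.70 in IkL/L cells and by 1.88 in WT cells (limma adjusted p = 9.78e-06 and 2.56e-06). The SRF partners Elk3 and Elk4 rose by 1.41 and 1.03 in IkL/L cells and by 1.51 and 1.60 in WT cells. At the DN3 to DN4 step limma called 0 in IkL/L cells, with 1 at an unadjusted p under 0.05, and Elk3 (−0.98), Mrtfb (−0.60) and Elk4 (−0.58) fell in WT cells. Between genotypes, limma called 0 in DN3, 0 in DN4 and 0 in DP cells, with 2, 5 and 2 at an unadjusted p under 0.05, and Crem, a CREB relative, was lower in the average, at −0.32 (0.0252).

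Of 9 JNK and p38 pathway genes, which lead to JUN, 7 were tested. Between DN4 and DP, 1 rose and 1 fell in IkL/L cells, beside 19.5% and 26.0% of all genes, and 2 rose and 1 fell in WT cells, beside 23.8% and 33.2%. Atf2, a JUN partner, rose by 0.43 in IkL/L cells and by 0.64 in WT cells, and the kinase gene Map2k3 fell by 0.51 in IkL/L cells and by 0.40 in WT cells. Between genotypes, limma called 0 in DN3, 0 in DN4 and 0 in DP cells, with 2, 1 and 0 at an unadjusted p under 0.05, and Atf2 was higher by 0.37 in the average (limma adjusted p = 0.00591).

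Of 11 inhibitors of MAP kinase signals and EGR proteins, listed as feedback inhibitors, 10 were tested. In the average over stages 3 were called higher, Spry2 among them, and 2 lower in IkL/L cells, beside 9.01% and 6.49% of all genes. Nab1, a corepressor that binds EGR1 and EGR2, read 10.29 on both IkL/L DN3 arrays, against 9.68 and 9.71 on the WT DN3 arrays. In DN4 cells it read 10.27 and 10.40 on the IkL/L arrays, against 9.52 and 9.40 on the WT arrays. It was higher by 0.60 in DN3 and by 0.87 in DN4 cells (limma adjusted p = 0.0143 and 0.00119) and by 0.62 in the average (7.84e-05). Spry2, an inhibitor of Ras signalling, read 5.32 and 6.05 in IkL/L DP cells, against 3.66 and 4.30 in WT DP cells, below the array median. The difference of 1.70 is given without a test, since Spry2 passed the brightness filter through its IkL/L arrays. Its WT arrays over all stages read 3.66 to 5.14, at or below the level of the array medians. The counts of this list include Spry2. The ERK phosphatase genes Dusp4 in DP cells (−1.07), and Dusp6 (−0.62) and Dusp5 (−0.58) in the average, were lower. Over the DN4 to DP step, 0 rose and 2 fell in IkL/L cells, and 4 rose and 2 fell in WT cells, where 0 rose without WT DP replicate 2. The shares of all genes were 19.5% higher and 26.0% lower in IkL/L cells, and 23.8% and 33.2% in WT cells.

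Further AP-1 partners, 9 tested of 11, included Batf, whose product pairs with JUN proteins. Batf read 6.90 and 6.49 in IkL/L DN3 cells, against 7.47 and 7.46 in WT DN3 cells. Batf was lower in IkL/L cells, at −0.77 in DN3, −0.92 in DN4 and −0.72 in the average (limma adjusted p = 0.0164, 0.00542 and 0.00023). Jdp2, a JUN dimerization partner that represses AP-1, was lower in IkL/L DN3 cells, at −0.57 (0.048), and higher by 0.62 in IkL/L DP cells (0.0243). From DN4 to DP, 1 rose and 2 fell in IkL/L cells, and 1 rose and 4 fell in WT cells, beside 19.5% and 26.0% of all genes in IkL/L and 23.8% and 33.2% in WT cells. Among them, Maf differed by −3.55 in IkL/L and −3.69 in WT cells. Without the 3 IkL/L replicate 2 arrays, 0 of these partners were called in DN3 and 2 in DN4 cells.

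Among 13 genes that report T cell receptor signal, the activation marker Cd69 read 5.67 and 6.50 in IkL/L DN4 cells, against 8.92 and 9.38 in WT DN4 cells, a difference of −3.06 (limma adjusted p = 0.00287). Pdcd1, an inhibitory receptor, was lower in IkL/L DN4 cells, at −0.87 (0.0277), and higher by 1.19 in IkL/L DP cells (0.00429). In DP cells Icos was also lower in IkL/L, at −1.70 (0.0246), and Irf4 higher by 0.54 (0.0378). At the later step, 7 of 13 rose and 1 fell in IkL/L cells, beside 19.5% and 26.0% of all genes, and 7 rose and 2 fell in WT cells, beside 23.8% and 33.2%. Cd5, whose level follows receptor signal strength, rose by 2.17 in IkL/L cells and by 2.53 in WT cells (6.55e-05 and 1.28e-05).

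Of 12 genes of heat shock and cell handling 11 were tested. From DN4 to DP, 2 rose and 8 fell in IkL/L cells, and 1 rose and 8 fell in WT cells, beside 26.0% of all genes called lower in IkL/L and 33.2% in WT cells, with list medians of −0.73 in IkL/L and −0.61 in WT cells. The inducible HSP70 gene Hspa1a read 12.29 and 10.42 in DN3, 11.49 and 10.11 in DN4, and 5.19 and 4.65 in DP cells of IkL/L mice. In WT cells, Hspa1a read 11.75 and 11.99 in DN3, 10.80 and 11.54 in DN4, and 5.32 and 5.12 in DP cells. All 4 DP arrays were near the array median, and all DN arrays were above 10. Hspa1a fell by 5.88 in IkL/L cells and by 5.95 in WT cells (limma adjusted p = 4.38e-06 and 2.32e-06), and Hspa1b by 5.34 in IkL/L and 4.48 in WT cells. Socs3, a cytokine signal inhibitor on the same list, rose by 3.96 in IkL/L cells and by 2.80 in WT cells.

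The mean level of the 11 handling genes lay between 11.33 and 11.89 on the DN3 and DN4 arrays and between 9.99 and 10.13 on the DP arrays. Their part in the falls of Fos, Jun and Ier2 was not tested. Between genotypes, the list mean was 11.83 and 11.56 in IkL/L and 11.89 and 11.84 in WT DN3 cells, and 0 handling genes rose and 1 (Socs3, −0.85) fell there. The 3′ minus 5′ difference of the actin control, a measure of RNA quality, was 1.92 and 2.86 on the IkL/L DN3 arrays and 2.04 and 2.15 on the WT DN3 arrays. It was 1.93 and 2.39 in DN4 and 2.26 and 2.64 in DP cells of IkL/L mice, and 1.74 and 1.93 in DN4 and 2.86 and 2.29 in DP cells of WT mice. With this difference as a covariate, Junb was called in DN3 cells (−1.05, adjusted p = 0.0237), and the DN4 to DP differences of Fos, Jun, Egr1 and Egr2 were called in both genotypes.

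The list counts moved when arrays were left out, each in turn or the 3 IkL/L replicate 2 arrays together. At the DN4 to DP step, other immediate early genes gave 4 to 6 rises and 4 to 5 falls in IkL/L cells, and 3 to 5 rises and 6 to 8 falls in WT cells. The ERK, SRF and CREB inputs gave 4 to 7 rises in IkL/L cells and 8 in WT cells, and the handling genes gave 6 to 8 falls in IkL/L cells and 6 to 9 in WT cells. The feedback inhibitors gave 0 to 6 rises in WT cells, and the T cell receptor readouts gave 5 to 7 rises in IkL/L cells and 4 to 8 in WT cells. Many genotype counts reached 0 in at least 1 of these settings. Among genes called lower they included those of other immediate early genes in DN4 cells and in the average, AP-1 partners in DN3 and in DN4 cells, feedback inhibitors in DP cells and in the average (0 to 3), ERK inputs in the average (0 to 2) and handling genes in DN3 cells. Among genes called higher they included those of feedback inhibitors in DN3 cells (0 to 2), AP-1 partners and T cell receptor readouts in DP cells, and the JNK and p38 inputs in the average (0 to 1). At the DN3 to DN4 step, other immediate early genes gave 0 to 2 rises and 1 to 3 falls in IkL/L cells, and 0 to 3 falls in WT cells.

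Genes other than the 10 members whose 6 group means, each centred, lay closest to a member were picked by root mean square distance, as a description over 6 groups that share the same arrays. With Jun (0.199) left out as a member, for Fos they were Esm1 (0.32), Dnmt3b (0.33) and Gpr25 (0.348), which were also lowest in DP cells of both genotypes. Egr1 was followed by Trim34a (0.075), Wdr13 (0.106) and Elk3 (0.145), which also had their low point in DN4 cells. The profile of Egr2 was nearest to Ccr9 (0.211), Cerk (0.264) and Ltb (0.274). Around the nearly level Nr4a1 lay 4933405L10Rik (0.059), Kdr (0.063) and Spock2 (0.069), at signals of 5.04 to 6.12, close to the array median.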

How the data were processed

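Log2 signals of 12 Affymetrix arrays were used as deposited by the authors, who made them with RMA per the submitters' processing notes (version not given), which corrects background, quantile normalizes and summarises probe sets. RNA was extracted with a Qiagen micro kit and labelled in 2 cycles per the labels' protocols, in 3 labelling series that the labels do not assign to samples, so that batch was not tested. No array column lacked a sample, and values ran from 2.68 to 14.7. Signals carry no read depth.

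Of 45099 probe sets, 34958 had 1 gene symbol, 932 several and 9209 none. The reference table matched 34754 gene IDs and changed 0 symbols. Each of 18194 genes took its brightest probe set (highest mean over arrays), and the 11649 genes that reached their array's median on at least 2 arrays were tested. Differences came from limma 3.58.1 in R 4.3.3 (statmod 1.5.0), with 1 mean per group over all arrays, 6 residual and 5.67 prior degrees of freedom, and Benjamini-Hochberg adjustment over all tested genes of a contrast. Called means an adjusted p under 0.05. Probe sets were fitted the same way, 20865 in number, for the additional probe sets of members and for Ikzf1. On simulated data for the DN3 genotype contrast with 11649 genes, 77% of 100 genes changed by 1 and 100% of 100 changed by 2 were called, and 0.0611% of unchanged genes. Normal noise was drawn there independently for each gene and array, with IkL/L means set equal to WT except for the changed genes. Deviations shared between arrays were not simulated, so these rates may not hold for the real arrays.

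The members, lists and tests were chosen with earlier results of these data known. The text names every member, up to 4 called members of each other list and contrast, the 3 nearest profiles of 4 members, and Ikzf1. Cd14, Mpo, S100a8, H2-Aa, H2-Ab1, Itgax, Xcr1, Bst2, Siglech, Flt3, Nkg7, Ncr1, Lyz2, Cd79b, Eif2s3y and the stage markers are named as marker checks. Array positions of probes were not used, as the sources name no build. Promoter windows are RefSeq sequences on GRCm38.p6.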

Additional observations from a re-analysis of the deposited data

Results flagged for a closer look

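The IkL/L minus WT difference took opposite signs on all arrays of a pair of stages for several probe sets. For the brighter Egr3 probe set, 1421486_at, it was 0.16 in DP and −0.34 in DN4 cells, a gap of 0.51 that limma did not call (adjusted p = 0.287). The second Jun probe set, 1448694_at, had 0.17 in DP and −0.35 in DN3 cells, a gap of 0.52 that was not tested.

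Jdp2, a partner of JUN proteins, had 0.62 in DP, −0.18 in DN4 and −0.57 in DN3 cells. Its gap was 0.80 between DP and DN4 (limma adjusted p = 0.101) and 1.19 between DP and DN3 cells, which was not tested. Socs3, a cytokine signal inhibitor, had 0.71 in DP, −0.44 in DN4 and −0.85 in DN3 cells, with gaps of 1.16 between DP and DN4 (limma adjusted p = 0.0652) and 1.56 between DP and DN3 cells, which was not tested. The inhibitory receptor gene Pdcd1 had 1.19 in DP and −0.87 in DN4 cells, and its gap of 2.06 passed the test of the difference (limma adjusted p = 0.00643).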

How the results depend on the processing

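The falls of Fos and Jun and the rises of Egr1 and Egr2 between DN4 and DP cells were called in all 25 alternative settings in both genotypes, and that of Ier2 in WT cells. The Egr3 difference of −0.45 at that step in WT cells turned to 0.67 with the mean over probe sets, which mixes its 2 disagreeing sets. Members called in DN3 genotype comparisons were 0 with the arrays of the contrast alone, without the 3 IkL/L replicate 2 arrays and with every probe set tested on its own, against 1. For DN4 cells they were 1 with array weights and 2 with the arrays of the contrast alone, against 0, and for DP cells 1 without the 3 IkL/L replicate 2 arrays, against 0. The average over stages gave 1 with genotype by replicate number as a random block, against 2. The IkL/L DN3 to DN4 step gave 0 with array weights or centred arrays, against 1. It gave 2 with genotype by replicate number as a random block, the actin covariate or the mean of probe sets. Leaving out 1 array at a time gave 0 to 1 members called for each stage, 0 to 3 for the average, 0 to 4 for the WT and 0 to 2 for the IkL/L DN3 to DN4 step. The cause of these changes was not tested.

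The sources do not say that a replicate number marks a shared pool, and with 2 arrays a group the deviations of same-numbered arrays cannot settle it. They correlated at 0.15 to 0.32 between WT stages, at 0.01 to 0.49 between IkL/L stages and at −0.34 to 0.06 between genotypes. With the replicate block, members called were 3 in the average, 4 in the WT and 1 in the IkL/L DN3 to DN4 step, and 8 in the WT and 5 in the IkL/L DN4 to DP step. The block lost Fos (adjusted p = 0.0505) and Jund (0.054) in IkL/L steps, and gained Egr1 in the IkL/L DN3 to DN4 step (0.048) and Egr2 in the average (0.0301).

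All genes called ranged from 211 to 798 in DN3, 248 to 1604 in DN4 and 344 to 1048 in DP genotype comparisons, against 499, 802 and 697, and from 1155 to 2286 in the average, against 1806. For the DN3 to DN4 step they ranged from 211 to 815 (IkL/L) and 340 to 2157 (WT), against 512 and 1078. From DN4 to DP the lowest counts were 3928 (IkL/L) and 5109 (WT), against 5298 and 6638. The count of 5109 is of the 7597 genes left by a filter at the 75th percentile. The highest counts at that step, 8721 (IkL/L) and 11601 (WT), are of the 20865 probe sets tested on their own. These are 41.8% and 55.6% of probe sets, beside 45.5% and 57.0% of genes in the main fit. Genotype differences of the steps ranged from 3 to 28 and from 36 to 227, against 6 and 115. Signals at or below the array median limit falls to them and rises from them, and 2 arrays a group limit the precision.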
